A study of Mus musculus with 9 samples.

Results

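The Slc25 family holds the mitochondrial carriers, proteins of the inner mitochondrial membrane that exchange nucleotides, phosphate, carboxylates, amino acids and cofactors between cytosol and matrix. A few relatives sit in other membranes, such as Slc25a17 in the peroxisome and Slc25a46 in the outer mitochondrial membrane. Red cell precursors use these carriers for the first and last steps of heme synthesis, which lie inside the mitochondrion, and lose their mitochondria when they mature. The carriers described here are the genes whose array annotation symbol starts with Slc25a, other than Slc25a37 and Slc25a38, each read by the probe set with the highest mean among those that name that gene alone. They are 42 of 18193 genes and were read by 91 probe sets, of which 1 per gene carries the values below.

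The arrays measured RNA of peripheral blood from mouse embryos at E12.5 on a mixed C57BL6/129SvEv background. Matings between Cbfb+/ΔC95 mice gave homozygous embryos (CbfbΔC95/ΔC95, 3 arrays), heterozygous embryos (Cbfb+/ΔC95, 3 arrays) and wild-type embryos (Cbfb+/+, 3 arrays). CBFβ, the product of Cbfb, pairs with RUNX proteins to form core binding factor, and the title of the series names the C-terminus of a fusion of it, CBFβ-SMMHC. The labels describe the ΔC95 allele no further. Each pool held blood of 8 to 10 embryos sharing a genotype. Whether every array had a pool of its own is not stated, and the p-values therefore measure only the variation among these arrays, which may be technical.

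All values are on the log2 scale, and a difference of 1 is a 2-fold change relative to the other transcripts on the array. The number of arrays limits the precision. Cbfb itself averaged 5.10 ± 0.16 in homozygous, 5.77 ± 0.04 in heterozygous and 6.01 ± 0.03 in wild-type blood (SD, n = 3 each), by 1 probe set. Its position relative to the altered segment was not examined, and the reading is therefore no check of the genotypes. Erythroid markers, such as Klf1 and Alas2, averaged between 11.07 and 11.21 over 8 genes on every array. Of these 8, 2 rose (Sptb and Gata1) and 3 fell (Ermap, Rhag and Alas2, by at most 0.53) in homozygous blood, and 3 fell in heterozygous blood. All 10 macrophage markers fell in homozygous against wild-type blood (median difference -3.06), and 5 of 6 megakaryocyte markers were lower (median -1.48). In heterozygous against wild-type blood 4 macrophage markers were lower, with a median of -0.34, and 1 megakaryocyte marker was higher. Liver markers were higher in homozygous blood in 6 of 7 genes. The poly-A spike-ins, transcripts added to the RNA before labelling, were brighter than on wild-type arrays by 1.58 on homozygous and by 0.88 on heterozygous arrays. Every carrier's rise from wild type given here is smaller than that shift, so on a scale of equal spike-ins it would be a fall. Within a genotype the spike-in mean varied little (SD at most 0.02), so its level followed genotype. The spike-in amount, the RNA amount and the processing cannot be told apart here, and that scale is not shown to be the right one.

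In homozygous against wild-type blood, 6 of the 42 carriers fell and 7 rose (limma, Benjamini-Hochberg adjusted p under 0.05 over all probe sets). The same test called 14.9% of all 18193 genes lower and 10.7% higher, 25.6% in either direction, against 14.3%, 16.7% and 31.0% of the carriers. The carriers' shares are thus near those of all genes. Their median difference was 0.02, against 0.05 for all genes, and their median absolute difference was 0.10, against 0.12. The falls reached -1.41 and the rises 0.40. By substrate, 3 of 8 carriers of cofactors and nucleotides fell with none higher, 2 of 3 carboxylate carriers rose, and none of 8 amino acid carriers, 4 carriers of acylcarnitine, iron and glutathione or 3 relatives of the uncoupling proteins passed the test. No test of the differences between these classes was made.

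**Figure D1:**
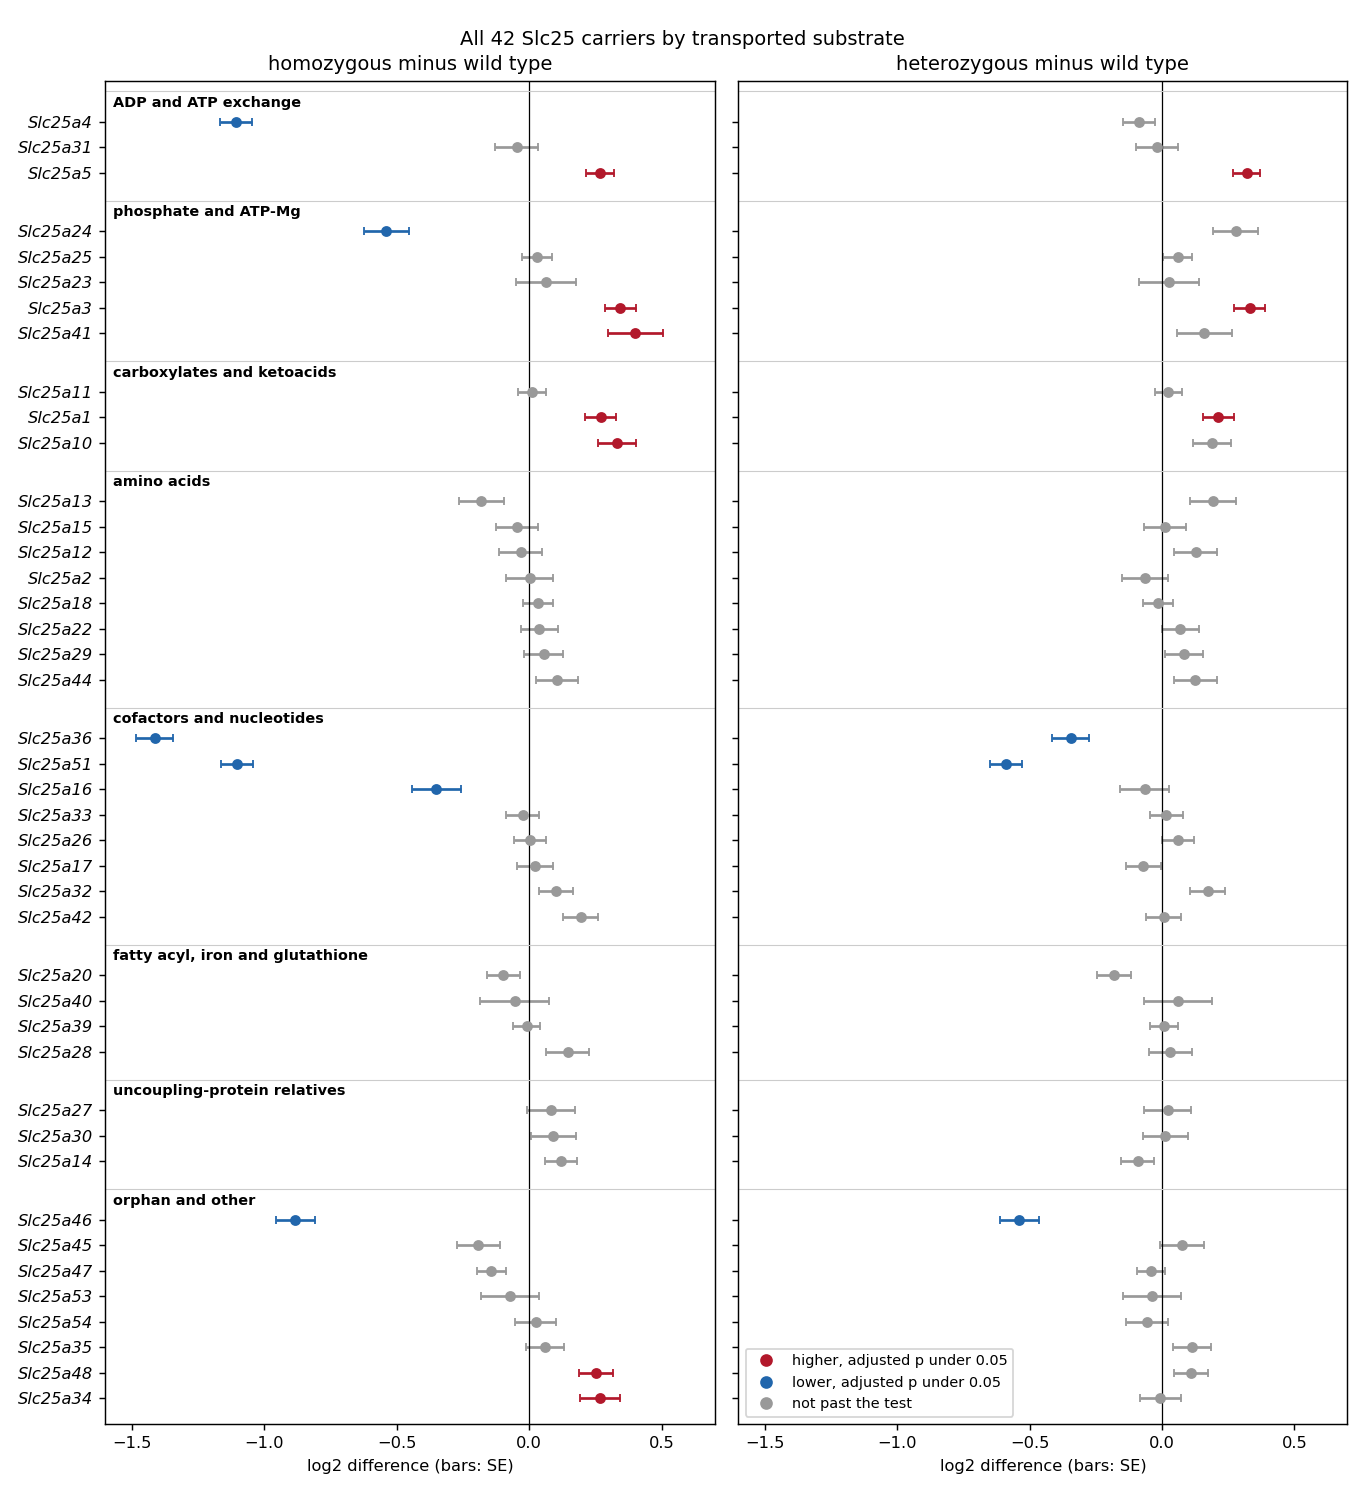
Difference from wild-type blood for all 42 Slc25 carriers, grouped by transported substrate, in homozygous (left) and heterozygous (right) embryos. The horizontal axis is the log2 difference, points are limma estimates with their SE, and colour marks carriers past the test; the 6 falls in homozygous blood reach -1.41, while the 7 rises stay at or below 0.40.

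The pyrimidine nucleotide carrier Slc25a36, which supplies the matrix with precursors for mitochondrial DNA and RNA, showed the lowest difference of the family. It read 4.75, 4.78 and 4.88 on homozygous arrays, 5.94, 5.84 and 5.84 on heterozygous arrays and 6.30, 6.27 and 6.09 on wild-type arrays. The 3 groups did not overlap. The homozygous minus wild-type difference was -1.41 ± 0.07 (SE; 2.67-fold, adjusted p = 4.88e-08, limma), and the heterozygous one was -0.34 ± 0.07 (adjusted p = 0.00773). Its other probe sets, with wild-type means of 4.55 and 2.99, gave -0.36 and 0.02 in homozygous blood and did not pass, and the mean of all its probe sets gave -0.58. Its relative Slc25a33, also a pyrimidine nucleotide carrier, was at -0.02 and did not pass.

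Slc25a51, which carries NAD into the matrix, was lower in each step of the genotype by its brightest probe set. It read 7.96, 7.80 and 7.79 in homozygous, 8.36, 8.37 and 8.36 in heterozygous and 8.96, 8.95 and 8.95 in wild-type blood. No array of one genotype overlapped another. The difference from wild type was -1.10 ± 0.06 in homozygous blood (SE; 2.15-fold, adjusted p = 1.03e-07, limma) and -0.59 ± 0.06 in heterozygous blood (adjusted p = 0.000113). The homozygous minus heterozygous difference was -0.51 (adjusted p = 0.00011). Both other probe sets fell in homozygous against wild-type blood, at -0.88 and -0.41. The first of them was called in both steps, at -0.61 in heterozygous minus wild-type and -0.27 in homozygous minus heterozygous blood. The second passed in neither step, at -0.32 (adjusted p = 0.0582, limma) and -0.09 (adjusted p = 0.599). Slc25a16, a gene linked to coenzyme A, also fell, with 3.20, 3.08 and 2.79 in homozygous, 3.28, 3.37 and 3.28 in heterozygous and 3.44, 3.40 and 3.28 in wild-type blood. It was read by 1 dim probe set (percentile 14.7 of all genes by mean), whose signal over background is unknown. Its difference was -0.35 ± 0.09 (adjusted p = 0.0184), which was lost without wild-type replicate 1 (-0.32, adjusted p = 0.0738) or wild-type replicate 2 (-0.34, adjusted p = 0.0634).

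Slc25a46, an outer membrane protein that takes part in mitochondrial fission and fusion, was lower in each genotype step as well. It read 7.48, 7.50 and 7.27 in homozygous, 7.81, 7.81 and 7.67 in heterozygous and 8.34, 8.33 and 8.25 in wild-type blood, without overlap. The difference from wild type was -0.88 ± 0.07 in homozygous blood (SE, adjusted p = 3.05e-06, limma) and -0.54 ± 0.07 in heterozygous blood (adjusted p = 0.000732). A second probe set fell too, by 0.96 in homozygous and by 0.41 in heterozygous blood.

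The ADP/ATP carriers exchange cytosolic ADP for the ATP made in the matrix, and the genes for 2 of them moved in opposite directions in homozygous blood. Slc25a4, the form of heart and skeletal muscle, read 6.04, 5.88 and 5.92 in homozygous, 7.02, 6.94 and 6.94 in heterozygous and 7.07, 7.07 and 7.02 in wild-type blood. The homozygous arrays lay about 1 unit below both other groups. The difference was -1.11 ± 0.06 from wild type (SE; 2.15-fold, adjusted p = 1.19e-07, limma) and -1.02 ± 0.06 from heterozygous blood (adjusted p = 6.53e-07). Heterozygous minus wild-type blood gave -0.09 (adjusted p = 0.518). Of its 3 other probe sets, 2 fell in homozygous blood, at -1.37 and -1.19, and the dimmest gave 0.11 and did not pass. The probe set at -1.19 ends in _x_at, a mark of possible cross-hybridization, so its reading is uncertain. In heterozygous minus wild-type blood the probe set at -1.37 gave -0.46, short of the threshold (adjusted p = 0.0583).

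Slc25a5, the ADP/ATP carrier of dividing cells, read 11.30, 11.23 and 11.26 in homozygous, 11.31, 11.30 and 11.33 in heterozygous and 10.99, 11.01 and 10.99 in wild-type blood. Both mutant groups lay above wild type. The difference from wild type was 0.27 ± 0.05 in homozygous blood (SE, adjusted p = 0.00262, limma) and 0.32 ± 0.05 in heterozygous blood (adjusted p = 0.00232). Of its 7 other probe sets, 5 rose in homozygous and 6 in heterozygous blood, and none was lower. Most of its probe sets end in _x_at, a mark of possible cross-hybridization, and RefSeq lists a pseudogene of it, so its reading is uncertain. Slc25a5 is X-linked, and the pools differed in a sex-linked transcript: the brightest probe set of Xist averaged 10.11 in homozygous, 9.86 in heterozygous and 8.89 in wild-type blood, though its 2 other probe sets were lower in homozygous blood, 1 of them past the test at -0.28. The Y-linked Eif2s3y averaged 5.65, 4.73 and 6.12 in homozygous, heterozygous and wild-type blood by its brightest probe set, and its other, dimmer one did not pass. The Y-linked Uty and Kdm5d, with dimmer wild-type means of 3.38 and 4.77, did not follow it. Their brightest probe sets gave -0.02 and 0.15 in homozygous and -0.03 and -0.005 in heterozygous minus wild-type blood and did not pass. The part of embryo sex in the carrier's difference was not tested. The third gene, Slc25a31 of the testis, was at -0.05 and did not pass.

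**Figure D2:**
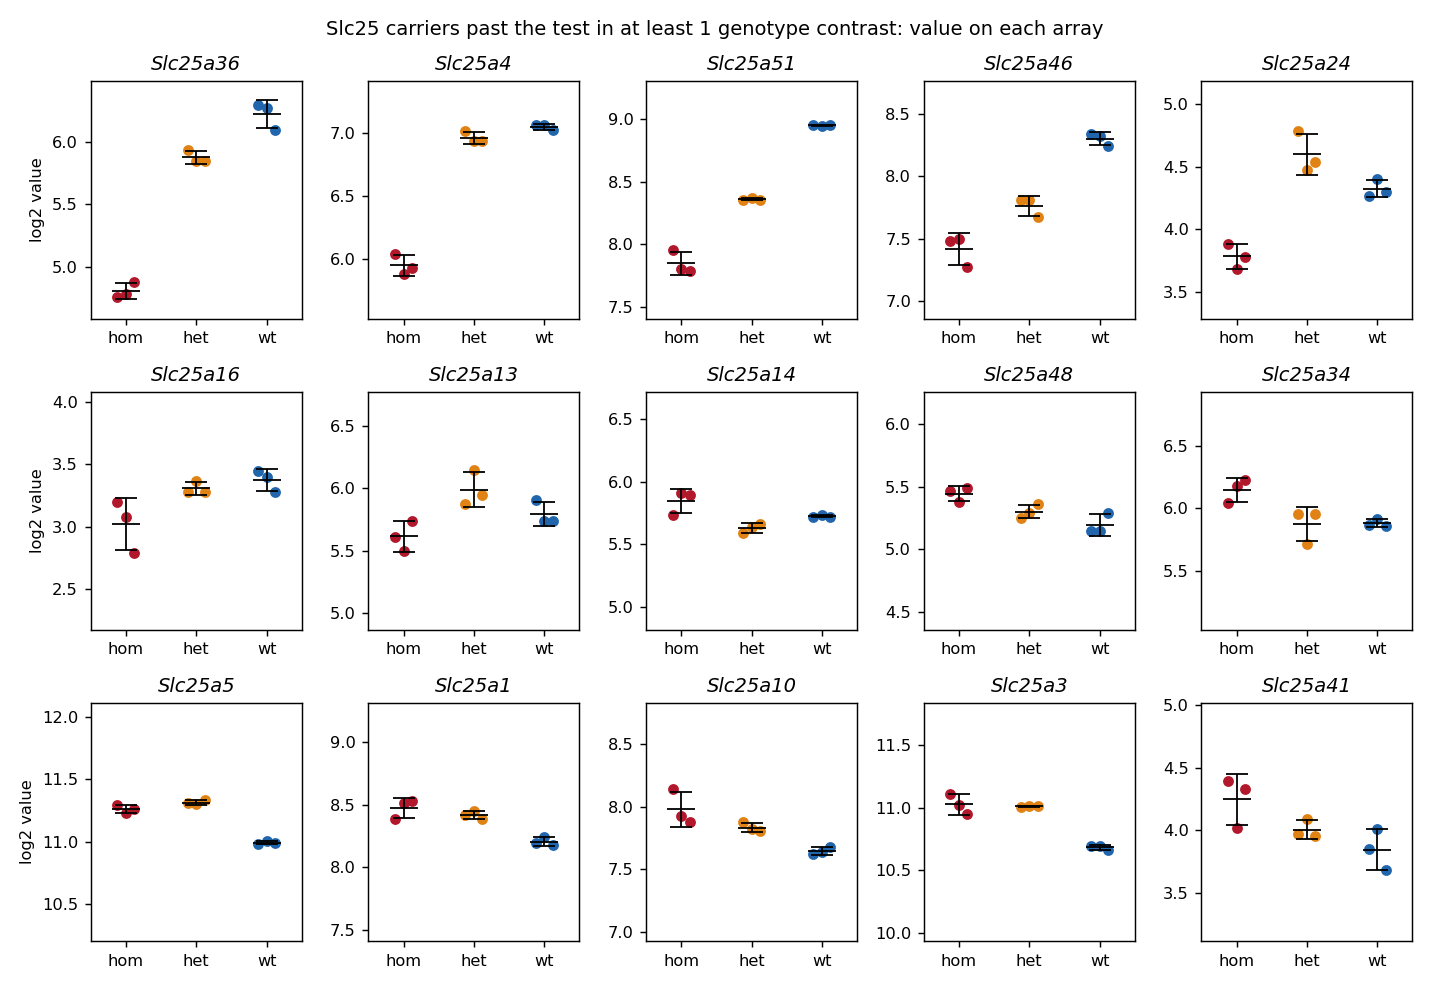
Log2 value on each of the 9 arrays for the 15 carriers past the test in at least 1 genotype contrast, in order of their homozygous minus wild-type difference. Points are arrays, bars are the mean and SD of 3 arrays per genotype, and every panel spans the same number of log2 units; in Slc25a51 and Slc25a46 the heterozygous arrays lie between the other groups, whereas in Slc25a4 they lie beside wild type.

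Phosphate enters the matrix through Slc25a3, which feeds ATP synthase. It read 11.11, 11.02 and 10.95 in homozygous, 11.01, 11.02 and 11.01 in heterozygous and 10.69, 10.69 and 10.66 in wild-type blood. Both mutant groups lay above wild type and overlapped each other. The difference was 0.35 ± 0.06 in homozygous (SE, adjusted p = 0.000887, limma) and 0.33 ± 0.06 in heterozygous blood (adjusted p = 0.0035). Its second, dimmer probe set gave 0.09 in both and did not pass.

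The ATP-Mg/phosphate carriers change the adenine nucleotide content of the matrix. The calcium-regulated Slc25a24 fell in homozygous blood, with 3.89, 3.69 and 3.78 there, 4.79, 4.48 and 4.54 in heterozygous and 4.27, 4.40 and 4.30 in wild-type blood. The heterozygous arrays were the highest of the 3 groups, without overlap. The homozygous difference was -0.54 ± 0.09 from wild type (SE, adjusted p = 0.000571, limma) and -0.82 ± 0.09 from heterozygous blood (adjusted p = 5.04e-05), while heterozygous minus wild-type blood gave 0.28 (adjusted p = 0.0733). Its other, dimmer probe set gave 0.05 from wild type and did not pass, and the mean of both gave -0.24. Slc25a41, a relative without the calcium-binding part, read 4.39, 4.02 and 4.34 in homozygous, 3.97, 4.10 and 3.96 in heterozygous and 3.85, 4.01 and 3.68 in wild-type blood. It rose by 0.40 ± 0.10 in homozygous blood (adjusted p = 0.0166), and all homozygous arrays lay above the wild-type arrays. That call was lost without homozygous replicate 1 (0.33, adjusted p = 0.0727), homozygous replicate 3 (0.36, adjusted p = 0.068) or wild-type replicate 3 (0.32, adjusted p = 0.0766). Slc25a23 and Slc25a25 were at 0.06 and 0.03 and did not pass.

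Among carboxylate carriers, the citrate carrier Slc25a1, which exports citrate for fatty acid and sterol synthesis, read 8.39, 8.51 and 8.53 in homozygous, 8.42, 8.45 and 8.39 in heterozygous and 8.20, 8.24 and 8.18 in wild-type blood. Both mutant groups lay above wild type. It rose by 0.27 ± 0.06 in homozygous blood (SE, adjusted p = 0.00565, limma) and by 0.21 ± 0.06 in heterozygous blood (adjusted p = 0.0461). The heterozygous call was lost without homozygous replicate 2 and without any 1 of the 6 heterozygous and wild-type arrays (differences of 0.20 to 0.23, adjusted p = 0.0529 to 0.148). It was also lost with the replicate block and under quantile, cyclic loess, array-median and reference-gene scaling (0.08 to 0.25, adjusted p = 0.0515 to 0.398), and held in 8 of 21 alternatives. The dicarboxylate carrier Slc25a10 read 8.14, 7.92 and 7.88 in homozygous, 7.88, 7.82 and 7.81 in heterozygous and 7.62, 7.64 and 7.68 in wild-type blood. It rose by 0.33 ± 0.07 in homozygous blood (adjusted p = 0.00496), and its heterozygous difference of 0.19 did not pass (adjusted p = 0.156). Its second probe set gave 0.15 in homozygous blood and did not pass. The oxoglutarate/malate carrier Slc25a11 was at 0.01 in homozygous minus wild-type blood, with a 95% interval of -0.11 to 0.12.

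Of the orphan carriers, Slc25a34 read 6.04, 6.18 and 6.22 in homozygous, 5.95, 5.71 and 5.95 in heterozygous and 5.86, 5.92 and 5.86 in wild-type blood. The homozygous arrays lay above both other groups, by 0.27 from wild type (adjusted p = 0.0273, limma) and by 0.27 from heterozygous blood (adjusted p = 0.0371). The first call was lost when homozygous replicate 2 or 3 or any wild-type array was left out (0.23 to 0.29, adjusted p = 0.0543 to 0.096), and the call against heterozygous blood was lost without homozygous replicate 2 or 3, heterozygous replicate 2 or any wild-type array (0.19 to 0.27, adjusted p = 0.0545 to 0.142). Slc25a48 averaged 5.44 ± 0.06 in homozygous, 5.30 ± 0.05 in heterozygous and 5.19 ± 0.08 in wild-type blood (SD, n = 3 each) and rose by 0.25 in homozygous blood (adjusted p = 0.0143). Its other probe sets gave -0.08 and 0.03, the mean of all 3 gave 0.07 (adjusted p = 0.308), and its call was lost without wild-type replicate 1 (0.23, adjusted p = 0.0598) or wild-type replicate 2 (0.23, adjusted p = 0.0629).

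Where a gene had several probe sets, they did not always pass together. Of the 13 carriers called in homozygous against wild-type blood, 4 had 1 probe set and 9 had several. Every other probe set was called the same way in 2 of these 9, Slc25a46 and Slc25a51, some in 2, Slc25a4 and Slc25a5, and none in 5. No probe set of the 13 was called in the opposite direction.

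**Figure D3:**
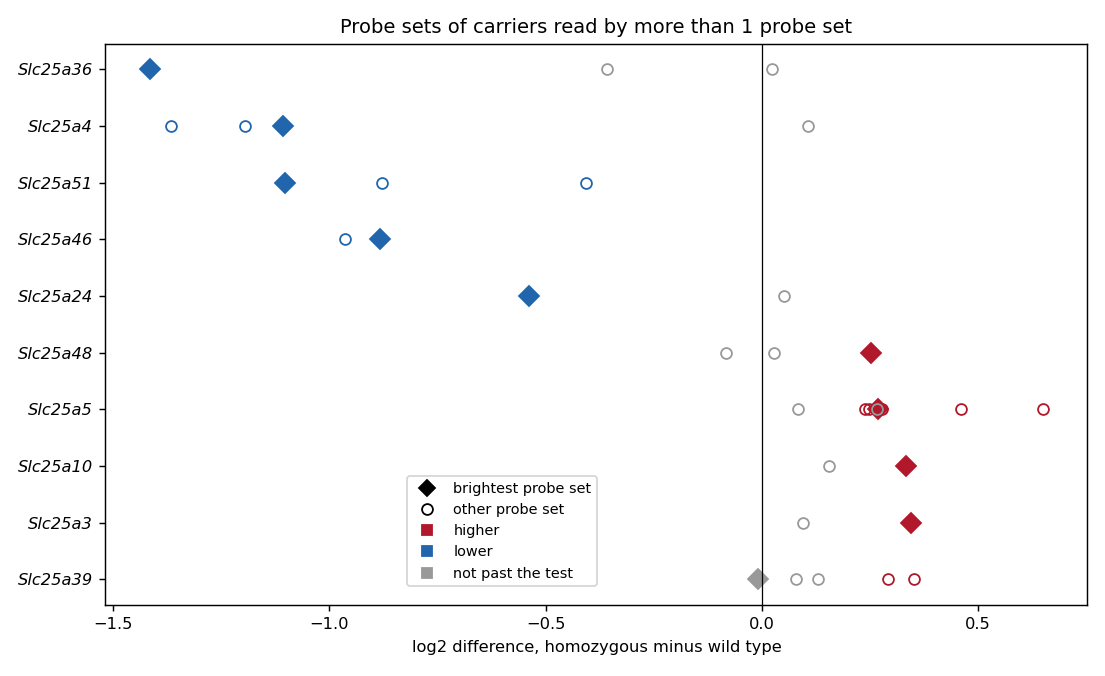
Homozygous minus wild-type log2 difference of every probe set of the 9 called carriers with several probe sets, and of Slc25a39. Filled diamonds are the brightest probe set of a gene, open circles the others, and colour marks those past the test; the 3 probe sets of Slc25a51 and both of Slc25a46 fall, while Slc25a36 and Slc25a24 are called by 1 probe set each.

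The glutathione carrier Slc25a39, which is needed for heme synthesis in zebrafish and mouse cells, read 13.43 on every homozygous array, 13.43, 13.43 and 13.48 in heterozygous and 13.43, 13.43 and 13.45 in wild-type blood. The groups overlapped, and the homozygous difference was -0.01 (95% interval -0.12 to 0.10). This probe set, like the one at 0.29 below, ends in _x_at, the mark of possible cross-hybridization, so its reading is uncertain. The array's values end at 14.56, and near that level a difference may not be readable. Among its 4 other probe sets, at wild-type means of 6.06 to 11.27, 2 rose in homozygous blood, at 0.29 (adjusted p = 0.00383) and 0.35 (adjusted p = 0.0212, limma), and the others gave 0.08 and 0.13. Its paralog Slc25a40 was at -0.05, the carnitine/acylcarnitine carrier Slc25a20 at -0.10 and the second mitoferrin, Slc25a28, at 0.15, and none of them passed.

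The 8 amino acid carriers lay between -0.18 and 0.10 in homozygous minus wild-type blood and between -0.06 and 0.19 in heterozygous minus wild-type blood. The glutamate carrier Slc25a22 read 6.42, 6.62 and 6.66 in homozygous, 6.59, 6.61 and 6.59 in heterozygous and 6.58, 6.47 and 6.53 in wild-type blood. The homozygous arrays overlapped both other groups, the heterozygous arrays lay just above wild type, and no comparison passed. The aspartate/glutamate carriers Slc25a12 and Slc25a13, of the malate-aspartate shuttle, were at -0.03 and -0.18. Slc25a13 passed in homozygous against heterozygous blood, with 5.61, 5.50 and 5.74 in homozygous, 5.88, 6.14 and 5.95 in heterozygous and 5.91, 5.74 and 5.74 in wild-type blood. The homozygous minus heterozygous difference was -0.37 ± 0.09 (SE, adjusted p = 0.0142, limma), and it missed the threshold without homozygous replicate 2 (-0.31, adjusted p = 0.0533) or heterozygous replicate 2 (-0.30, adjusted p = 0.0645). The ornithine carriers Slc25a15 and Slc25a2, the glutamate carrier Slc25a18, the basic amino acid carrier Slc25a29 and the branched-chain amino acid carrier Slc25a44 gave -0.05, 0.00, 0.03, 0.05 and 0.10 in homozygous blood.

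Of the uncoupling-protein relatives, Slc25a14 read 5.73, 5.91 and 5.89 in homozygous, 5.59, 5.64 and 5.67 in heterozygous and 5.72, 5.73 and 5.72 in wild-type blood. Homozygous minus heterozygous blood gave 0.21 ± 0.06 (SE, adjusted p = 0.0443, limma), a call lost when any array other than homozygous replicate 1 was left out (0.18 to 0.23, adjusted p = 0.0642 to 0.148). This gene is X-linked too. Slc25a27 and Slc25a30 gave 0.08 and 0.09 in homozygous minus wild-type blood and did not pass. The remaining cofactor carriers, Slc25a17 of the peroxisome, Slc25a26 for S-adenosylmethionine, Slc25a32 for folate and Slc25a42 for coenzyme A, were at 0.02, 0.00, 0.10 and 0.19. Slc25a35, Slc25a45, Slc25a47, Slc25a53 and Slc25a54 gave 0.06, -0.19, -0.14, -0.07 and 0.02. In all, 27 of the 42 carriers passed in none of the 3 genotype comparisons. The share of all genes that passed in none was not computed, so this count is not set against it. For these 27 carriers the homozygous minus wild-type differences lay between -0.19 and 0.19, with 95% intervals reaching from -0.37 to 0.34. A carrier that missed the threshold is not shown to be unchanged.

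In heterozygous against wild-type blood, 3 carriers rose (Slc25a5, Slc25a3 and Slc25a1) and 3 fell (Slc25a36, Slc25a46 and Slc25a51), each called in the same direction in homozygous blood. The test called 4.79% of all genes higher and 7.04% lower, 11.8% in either direction, against 7.14% of the carriers each way. Both comparisons share the wild-type arrays. In homozygous against heterozygous blood 2 carriers were higher (Slc25a34 and Slc25a14) and 6 lower (Slc25a36, Slc25a4, Slc25a24, Slc25a51, Slc25a13 and Slc25a46), while 5.38% of all genes were higher and 10.4% lower, 15.8% in either direction. These 2 comparisons depend on the scaling. With equal means of 8 reference genes on every array, 2 carriers were higher and 6 lower in heterozygous against wild-type blood. In homozygous against heterozygous blood 13 were then higher and 5 lower. The reference genes differed between genotypes themselves, so this scaling is no neutral standard. In the reported fit 2 of the 8 were higher and 0 lower in heterozygous against wild-type blood. In homozygous against heterozygous blood 1 was higher and 3 were lower.

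Set against the midpoint of the homozygous and wild-type means, the heterozygous mean was higher for 4 carriers and lower for none. Of all genes, 3.64% were above the midpoint and 1.53% below it by the same test, 5.18% in either direction. With equal means of the reference genes the balance turned, to 3 carriers above the midpoint and 10 below. The distance was 0.55 ± 0.07 for Slc25a24 (SE, adjusted p = 0.00142, limma), 0.47 ± 0.05 for Slc25a4 (adjusted p = 0.00042), 0.36 ± 0.06 for Slc25a36 (adjusted p = 0.00511) and 0.18 ± 0.05 for Slc25a5 (adjusted p = 0.0461). That of Slc25a5 was lost when any array other than homozygous replicate 1 was left out (0.18 to 0.19, adjusted p = 0.0637 to 0.148). It was also lost with the replicate block and under quantile, array-median and reference-gene scaling (0.05 to 0.18, adjusted p = 0.0597 to 0.459), and held in 7 of 20 alternatives. With the mean of its probe sets, Slc25a36 lay 0.09 above the midpoint (adjusted p = 0.486). The other probe sets of Slc25a4 gave 0.56 (adjusted p = 0.00902), 0.23 (adjusted p = 0.379) and, for the dimmest, 0.04. That at 0.56 ends in _x_at, the mark of possible cross-hybridization. The other, dimmer probe set of Slc25a24 gave 0.04 and did not pass. For Slc25a51 and Slc25a46 the distances were -0.04 and -0.10 and did not pass.

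Markers of other cell types differed between the same arrays. The mean of the 10 macrophage markers lay at 4.58 to 4.69 on homozygous, 6.98 to 7.01 on heterozygous and 7.33 to 7.37 on wild-type arrays, and that of the 6 megakaryocyte markers at 5.69 to 5.80, 7.46 to 7.55 and 7.26 to 7.30. Liver markers averaged 6.41 to 6.50 on homozygous, 5.73 to 5.78 on heterozygous and 5.90 to 5.93 on wild-type arrays, and the 8 muscle markers 4.51 to 4.66, 4.91 to 4.93 and 4.44 to 4.51. The part of these cell types in the carriers' differences was not tested. In pooled blood, fewer cells of a type and less RNA per cell cannot be told apart.

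Stretches before the transcription start are shown for the 3 carriers with the largest falls and the 2 with the largest rises in homozygous against wild-type blood among called carriers with a RefSeq promoter window, because the targeted gene encodes a subunit of a DNA-binding complex. Slc25a51, Slc25a46 and Slc25a41 are not shown. Each is the 250 bases 5′ of the RefSeq start on GRCm38.p6, written 5′ to 3′ on the strand of the gene, with capitals marking the 6-base motifs described next, on either strand.
Slc25a36 (chr9:97111042-97111291, minus strand): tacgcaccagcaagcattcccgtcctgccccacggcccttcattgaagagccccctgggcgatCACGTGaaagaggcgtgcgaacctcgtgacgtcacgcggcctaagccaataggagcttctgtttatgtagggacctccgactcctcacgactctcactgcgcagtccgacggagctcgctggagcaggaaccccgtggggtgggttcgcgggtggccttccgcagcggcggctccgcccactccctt
Slc25a4 (chr8:46211063-46211312, minus strand): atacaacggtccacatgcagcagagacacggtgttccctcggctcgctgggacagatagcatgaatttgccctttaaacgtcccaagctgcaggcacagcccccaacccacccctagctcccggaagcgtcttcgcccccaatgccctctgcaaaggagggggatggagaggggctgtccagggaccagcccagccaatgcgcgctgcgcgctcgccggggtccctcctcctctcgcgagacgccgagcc
Slc25a24 (chr3:109122899-109123148, plus strand): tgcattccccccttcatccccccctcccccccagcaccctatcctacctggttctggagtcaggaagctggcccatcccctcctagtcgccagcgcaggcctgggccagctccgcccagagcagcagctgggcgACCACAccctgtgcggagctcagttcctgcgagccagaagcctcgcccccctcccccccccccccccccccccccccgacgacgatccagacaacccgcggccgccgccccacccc
Slc25a3 (chr10:91123968-91124217, minus strand): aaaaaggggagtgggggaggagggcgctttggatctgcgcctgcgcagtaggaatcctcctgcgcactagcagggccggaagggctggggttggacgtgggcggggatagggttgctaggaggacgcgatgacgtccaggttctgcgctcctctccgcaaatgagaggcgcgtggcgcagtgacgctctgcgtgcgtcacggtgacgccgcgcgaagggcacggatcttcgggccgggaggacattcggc
Slc25a10 (chr11:120491587-120491836, plus strand): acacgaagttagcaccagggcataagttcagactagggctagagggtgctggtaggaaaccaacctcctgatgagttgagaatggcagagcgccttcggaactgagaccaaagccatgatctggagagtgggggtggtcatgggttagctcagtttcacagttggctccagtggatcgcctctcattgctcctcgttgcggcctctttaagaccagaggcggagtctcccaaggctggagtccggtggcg

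RefSeq windows of 300 bases, with 50 bases after the start, were found for 33 of the 42 carriers, 42 windows in all. The RUNX core letters TGTGGT or their reverse complement occurred in 3 of these 42 windows, of Slc25a24, Slc25a18 and Slc25a20, and in 16.8% of all 32851 windows. Of these, Slc25a24 fell and the other two did not pass the test. The letters AGATAA, bound by GATA factors, occurred in 3 of the 42 windows, of Slc25a5, Slc25a22 and Slc25a53, and in 11.2% of all windows. The E-box letters CACGTG, which read the same on both strands, occurred in 8 of the 42 windows and in 7.2% of all windows. The 8 belong to 7 carriers, Slc25a36, Slc25a1, Slc25a13, Slc25a14, Slc25a15, Slc25a31 and Slc25a33. The windows of Slc25a14 with these letters overlap, so a single site may be counted more than once. No match of a carrier shared letters with a match of another motif. The stretches of Slc25a4, Slc25a3 and Slc25a10 shown above held none of them.

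Genes that work next to the carriers were read from lists of transporters and enzymes. Of the 2 carriers left out by the rule, Slc25a38, which serves glycine import for heme synthesis, fell by 0.77 in homozygous blood (adjusted p = 4.98e-07, limma) and by 0.50 in heterozygous blood (adjusted p = 0.000114). The mitoferrin Slc25a37 fell by 0.30 in homozygous blood (adjusted p = 0.00124). Of 4 measured relatives under other symbols, Mtch2, an outer membrane protein, rose by 0.34 (adjusted p = 0.00415), and Ucp1, Ucp3 and Mtch1 gave 0.06, -0.04 and 0.11 without passing.

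Of 15 measured mitochondrial transporters outside the family, 6 rose and 3 fell in homozygous blood (median 0.08), and 3 rose and 3 fell in heterozygous blood (median 0.03). Of all genes, 10.7% rose and 14.9% fell in homozygous blood, and 4.79% rose and 7.04% fell in heterozygous blood. The channel genes Vdac1 and Vdac2 of the outer membrane rose by 0.25 and 0.21 in homozygous and by 0.22 and 0.29 in heterozygous blood. The probe set of Vdac1 ends in _x_at, the mark of possible cross-hybridization. The serine transporter Sfxn1 rose by 0.24 and 0.33 in the same order. Its relative Sfxn3 rose by 0.59 in homozygous blood (adjusted p = 0.00202, limma) and was at 0.08 in heterozygous blood without passing. Letm1, an inner membrane protein of ion exchange, rose by 0.37 and the porphyrin transporter Abcb6 by 0.34 in homozygous blood. The pyruvate carrier subunit Mpc1 fell by 0.50 in homozygous and 0.34 in heterozygous blood. Abcb10, an ABC transporter of the inner membrane in red cell precursors, fell by 0.34 and 0.47 in the same order. Tspo, of the same list, fell by 0.30 in homozygous and 0.28 in heterozygous blood.

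Of 19 measured enzymes that use or make what the carriers move, 6 rose and 3 fell in homozygous blood, and 5 rose and none fell in heterozygous blood. The shares of all genes are those given for the transporters. Of 4 mitochondrial folate enzymes, 3 rose in homozygous blood, Shmt2 by 1.06 (adjusted p = 2.14e-07, limma), Mthfd2 by 0.86 and Mthfd1l by 0.56, and in heterozygous blood by 0.55, 0.46 and 0.35, while Aldh1l2 gave 0.12 and 0.04 without passing. The folate carrier Slc25a32 read 3.05, 3.06 and 3.08 in homozygous, 3.17, 3.17 and 3.06 in heterozygous and 2.85, 3.04 and 3.00 in wild-type blood. Both mutant groups lay above wild type, but its difference of 0.10 from wild type in homozygous blood did not pass (adjusted p = 0.32, limma). It was among the dimmer genes (percentile 12 of all genes by mean), and a difference may not be readable at that level. In the malate-aspartate shuttle the mitochondrial enzyme genes Mdh2 and Got2 rose by 0.77 and 0.31 in homozygous and by 0.37 and 0.42 in heterozygous blood. The cytosolic Mdh1 and Got1 and the shuttle carriers Slc25a11, Slc25a12 and Slc25a13 did not pass in either comparison. The transhydrogenase Nnt, which uses matrix NADH and NADP, fell by 0.48 in homozygous blood (adjusted p = 0.00139) and was at 0.25 in heterozygous blood without passing. The embryos were of mixed strain background, and the part of strain in the Nnt difference was not tested.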

How the data were processed

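The authors' values were taken as log2, from their range of 1.49 to 14.56 and from RMA being named. Partek 6.5, Affymetrix Expression Console 1.0 and RMA are listed, per the submitters' processing notes, with no order or role. RMA equalizes the arrays, so a uniform change in RNA content is not seen. The 64 control probe sets were left out. Of 45037 others, 34945 carried a single gene symbol in the platform annotation.

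With limma 3.58.1 (R 4.3.3), genotype means were fitted for every probe set over the 9 arrays, and p-values were adjusted by the Benjamini-Hochberg method over 45037 probe sets, 2-sided, with a threshold of 0.05. Shares of all genes use the brightest probe set of each. The procedure was run on simulated arrays with independent noise and differences set in the homozygous group. Such arrays cannot test the effect of shared pools or of array scaling. Detection calls were not used, so signal over background is unknown.

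Every carrier past the test in a genotype contrast is named, with each array's value for up to 6 carriers in each direction of a contrast and for the brightest carrier of each substrate class. The values of Slc25a32 and the probe sets of Slc25a39 were added after they were seen. From other lists up to 4 called genes are named. Vdac1, Vdac2, Sfxn1, Abcb10, Tspo, Got2, Nnt and uncalled partners were added after their values were seen. Carriers and lists were chosen with earlier results of these data known. Alternatives are given at the end. Figures were drawn with matplotlib 3.10.9.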

Additional observations from a re-analysis of the deposited data

How the results depend on the processing

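The mean of the 8 reference genes was itself not level, at 8.675 to 8.757 on homozygous, 8.842 to 8.908 on heterozygous and 8.725 to 8.741 on wild-type arrays. With equal means of these genes, the median of all probe sets moved to -0.13 in heterozygous minus wild-type blood. It moved to 0.17 in homozygous minus heterozygous blood and to -0.15 in heterozygous blood minus the midpoint. Under this scaling 6 carriers, against 3, were lower in heterozygous than wild-type blood, 13, against 2, higher in homozygous than heterozygous blood, and 10, against 0, lower than the midpoint. Over all probe sets it gave 680 higher and 7408 lower in heterozygous against wild-type blood, where the reported fit gave 1536 and 2319, and 16761 higher and 2451 lower in homozygous against heterozygous blood, against 1880 and 3579. It gave 733 above and 14158 below the midpoint, against 1195 and 480. The 2 carriers higher in homozygous than heterozygous blood became 4 with quantile normalization and 0 with cyclic loess, with only the groups compared, at a threshold of 0.01 and with the replicate block. At 0.01, 4 instead of 7 carriers were higher in homozygous than wild-type blood. With the replicate block, 7 were higher and 6 lower in that comparison, 2 and 3 in heterozygous against wild-type and 0 and 8 in homozygous against heterozygous blood. Array deviations of equal number correlated at -0.02 to 0.07 and those of unequal number at -0.06 to 0.03. Between genotypes, 7 of 9 arrays correlated best with their own number. Correlations this weak cannot tell whether the numbers pair the arrays. Leaving out 1 array gave 5 to 8 carriers higher and 5 to 7 lower in homozygous against wild-type, 2 to 4 higher and 3 lower in heterozygous against wild-type, 0 to 3 higher and 5 to 8 lower in homozygous against heterozygous blood, and 3 to 4 above and 0 to 1 below the midpoint. Slc25a39 turned to 0.17 (adjusted p = 0.0146, limma) in homozygous minus wild-type blood with the mean of its probe sets. With such means Slc25a36 lost its heterozygous call (-0.20, adjusted p = 0.131). The causes were not tested. In homozygous against wild-type blood, Slc25a1, Slc25a3, Slc25a4, Slc25a5, Slc25a10, Slc25a24, Slc25a36, Slc25a46 and Slc25a51 stayed under 0.05 in all 21 alternatives. The fit of 2 groups gives no midpoint value.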

Other observations

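Identical deposited values recurred between arrays. Of the 42 carriers, 30 (71.4%) had the same value on at least 2 arrays, against 10704 of 18193 genes (58.8%). In 2 carriers all 3 heterozygous arrays were identical, Slc25a26 at 4.57 and Slc25a53 at 4.50, so the SD of 0 there is no measure of biological spread. No cause was tested.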
